A study of Rattus norvegicus with 8 samples.

Results

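The 7 genes described here encode the MHC class II antigen presentation machinery of the rat: the classical chains RT1-Ba, RT1-Bb, RT1-Da and RT1-Db1, the peptide-loading chains RT1-DMa and RT1-DMb, and the invariant chain Cd74. They were chosen by name, as every probe set that the platform annotation assigns to one of these 7 symbols, which gave 12 probe sets of 31042 tested and 7 genes of 14217. RNA was measured in isolated hearts of male Wistar rats of about 300 g, each hybridized to its own Affymetrix array. All hearts were excised and fed through the aorta in a Langendorff apparatus for 2 h, with 2 µM doxorubicin in the perfusate (4 hearts) or with no drug (4 control hearts). Doxorubicin is an anthracycline that intercalates into DNA and poisons topoisomerase II. The 4 hearts in each group are labelled as biological replicates.

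MHC class II molecules are pairs of an alpha and a beta chain that show peptides from engulfed material to CD4 T cells. Cd74 holds newly made pairs in shape and blocks their groove until they reach the lysosome, where the DM pair exchanges the last piece of Cd74 for a peptide. In the heart they are borne mainly by macrophages and dendritic cells, while interferon gamma can switch them on in other cells through the coactivator Ciita. The chains of the classical molecules are among the most variable proteins of a species, and Wistar rats are an outbred stock, so animals need not share 1 form of these genes. A short array probe can read such forms unequally, which is why the probe sets of a gene are set side by side heart by heart.

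Class II promoters share an X box, read by the RFX complex, and a Y box, an inverted CCAAT element read by NF-Y. The 150 bases before the start of each gene are printed because these boxes are the common wiring of the family. They are RefSeq sequences of the GRCr8 assembly, the BN reference strain and not these Wistar hearts. Of the 7 members 6 matched, without RT1-DMb. Each runs 5′ to 3′ on the gene's strand, and capitals mark CCAAT or its complement ATTGG (the Y box core) and GCAAC or its complement GTTGC (the X box core), which do not overlap.
RT1-Da, chr20:4515265-4515414, plus strand: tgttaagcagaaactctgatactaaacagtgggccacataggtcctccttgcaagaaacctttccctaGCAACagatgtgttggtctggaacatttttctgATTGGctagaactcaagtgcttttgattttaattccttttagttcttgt
RT1-Db1, chr20:4560163-4560312, minus strand: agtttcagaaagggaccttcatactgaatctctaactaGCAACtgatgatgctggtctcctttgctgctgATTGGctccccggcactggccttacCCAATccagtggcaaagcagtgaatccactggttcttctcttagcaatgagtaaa
RT1-Ba, chr20:4576907-4577056, plus strand: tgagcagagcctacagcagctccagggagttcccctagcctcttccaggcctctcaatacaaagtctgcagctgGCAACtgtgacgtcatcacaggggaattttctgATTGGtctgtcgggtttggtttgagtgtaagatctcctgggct
RT1-Bb, chr20:4604119-4604268, minus strand: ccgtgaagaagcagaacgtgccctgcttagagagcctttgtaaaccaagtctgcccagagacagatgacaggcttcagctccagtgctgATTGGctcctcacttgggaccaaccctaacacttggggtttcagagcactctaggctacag
RT1-DMa, chr20:4712336-4712485, minus strand: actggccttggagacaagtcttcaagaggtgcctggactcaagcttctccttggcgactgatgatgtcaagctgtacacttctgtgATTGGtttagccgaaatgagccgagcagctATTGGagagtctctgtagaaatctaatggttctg
Cd74, chr18:56527056-56527205, plus strand: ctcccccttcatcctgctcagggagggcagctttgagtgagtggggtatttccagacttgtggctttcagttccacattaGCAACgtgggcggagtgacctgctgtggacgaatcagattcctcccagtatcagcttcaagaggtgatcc

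CCAAT on either strand was found in 5 of the 6 windows, against 23.5% of 33469 rat promoter windows of the same length. GCAAC on either strand was found in 4 of the 6, against 19.4% of all windows. RT1-Da, RT1-Db1 and RT1-Ba each held GCAAC followed on the gene's strand by ATTGG, with 28, 27 and 28 bases between, and 71 of the 33469 windows (0.212%) held the 2 in that order with 15 to 35 bases between. These motifs and the spacing were chosen with the sequences in view, and a match describes letters, not binding.

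The arrays read heart muscle: the 7 measured cardiomyocyte markers, Myh6 and troponin genes among them, averaged 13.76 to 13.81 log2 in doxorubicin hearts and 13.74 to 13.79 log2 in control hearts. Values are log2 of the deposited intensity, and levels of different probe sets are not set against each other. Differences are doxorubicin minus control with the standard error (SE) of a limma fit, and p-values were adjusted after Benjamini and Hochberg across the 31042 probe sets, with calls under 0.05. The level of the 18 spiked hybridization controls ran from 9.97 to 10.13 log2 on doxorubicin arrays and from 10.21 to 10.57 log2 on control arrays, so it moved with the groups. In all, 687 probe sets were called (2.21%), of which 214 were higher (0.689%) and 473 lower (1.52%) in doxorubicin hearts.

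No class II probe set was called between doxorubicin and control hearts: 0 of 12 passed the limma threshold, against 2.21% of all probe sets. At an unadjusted p under 0.05, 4 of the 12 passed, against 13.6% of all probe sets, and these were RT1-Da, RT1-DMa, RT1-Bb 1371065_at and RT1-Ba 1377334_at, each higher in doxorubicin hearts (7.73% of all probe sets were higher at that p and 5.84% lower). Of the 12 differences 6 were positive and 6 negative. Over the brightest probe set of each gene the median difference was 0.12, beside 0.0063 over all 14217 genes. Single hearts lay far apart on several of them. The spread within groups was in the top 1% of all probe sets for 4 of them and in the top 10% for 6.

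**Figure D1:**
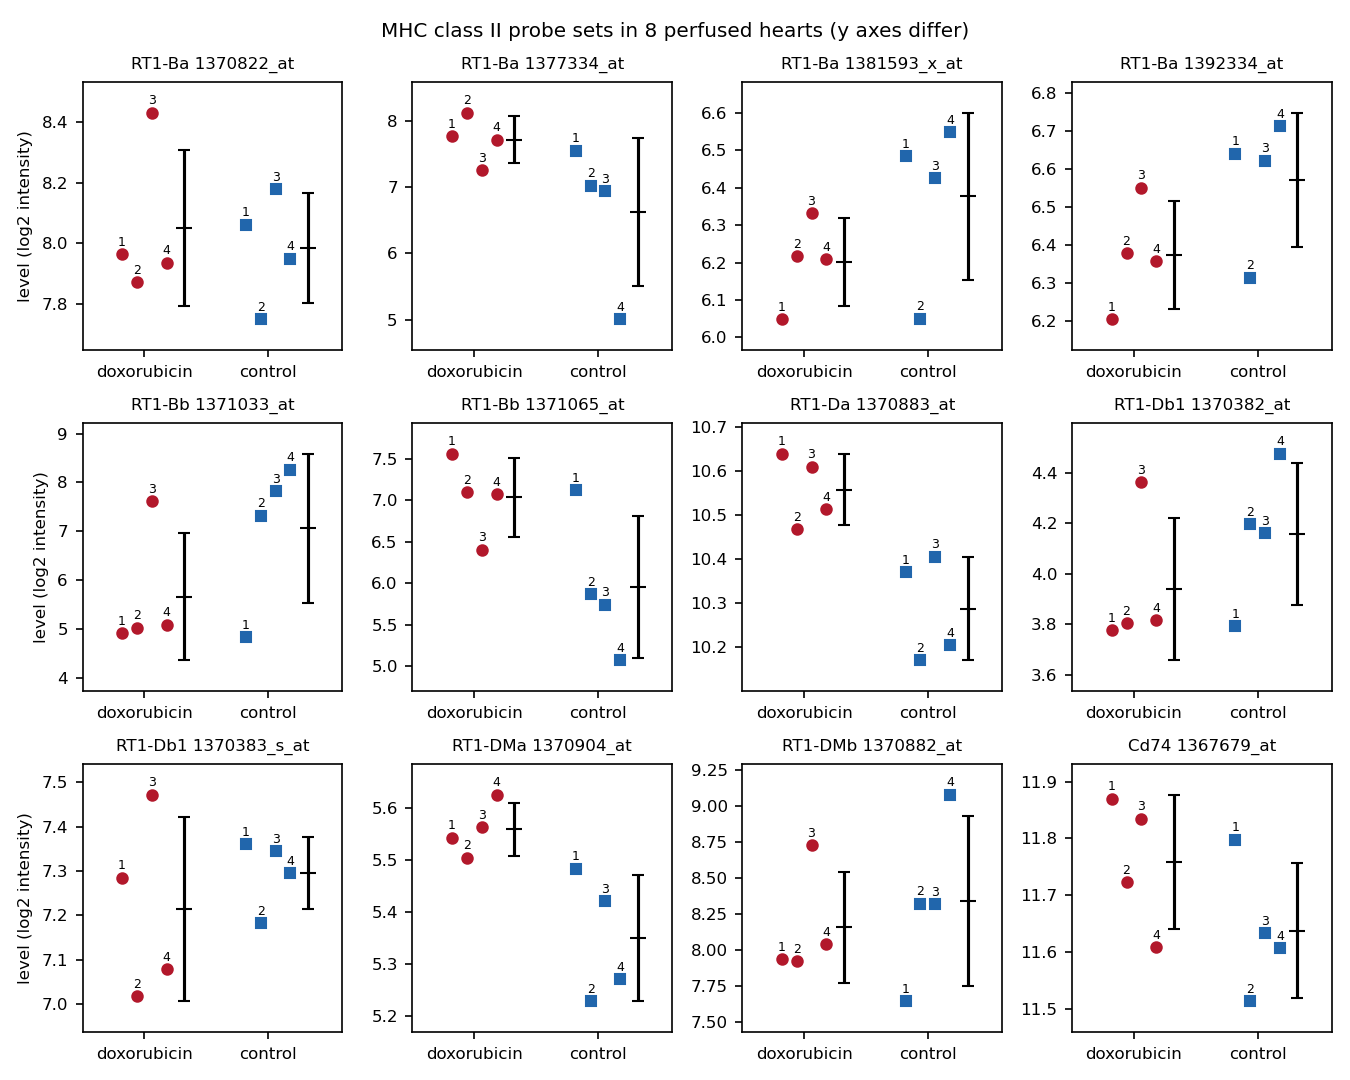
Level (log2 intensity) of the 12 MHC class II probe sets in each heart, doxorubicin hearts as red circles and control hearts as blue squares, numbered by replicate, with the mean and SD (n = 4) beside each group as black bars. The groups overlap on 10 probe sets and not on RT1-Da and RT1-DMa, and RT1-Bb 1371033_at shows 4 hearts near 5 and 4 above 7.

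RT1-Bb, the beta chain of the RT1-B molecule, had 2 probe sets that ran in opposite directions from heart to heart. Probe set 1371033_at read 4.92, 5.02, 7.61 and 5.08 log2 in doxorubicin hearts 1 to 4, against 4.83, 7.32, 7.82 and 8.26 log2 in control hearts 1 to 4. Hearts thus stood at 2 separate levels, with nothing between 5.08 and 7.32, a gap of 65.2% of the whole range. Doxorubicin 3 and control 2, 3 and 4 were at the upper level, and control 1 and doxorubicin 1, 2 and 4 at the lower one, so 1 of 4 doxorubicin hearts and 3 of 4 control hearts were at the upper level. The highest heart was 10.8-fold above the lowest.

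Probe set 1371065_at of the same gene read 7.57, 7.10, 6.40 and 7.08 log2 in the doxorubicin hearts, against 7.12, 5.87, 5.74 and 5.07 log2 in the controls. The 4 hearts that were high on 1371033_at were the 4 lowest here, and control 4, the highest there, was the lowest. The difference of the 2 probe sets (1371033_at minus 1371065_at) cancels whatever level of RT1-Bb both read. It was -2.65, -2.07, 1.21 and -1.99 in doxorubicin hearts and -2.29, 1.45, 2.08 and 3.19 in control hearts, and its sign split the hearts in the same way. Its range of 5.84 log2 exceeded that of either probe set alone (3.43 and 2.50).

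Between the groups the 2 probe sets of RT1-Bb therefore gave opposite signs. On 1371033_at the mean was 5.66 ± 1.30 log2 in doxorubicin and 7.06 ± 1.54 log2 in control hearts (SD, n = 4 each), a difference of -1.40 (SE 0.79, limma adjusted p = 0.511). On 1371065_at it was 7.04 ± 0.48 log2 in doxorubicin and 5.95 ± 0.86 log2 in control hearts, a difference of 1.09 (SE 0.39, limma adjusted p = 0.237). Without control 1, the control heart at the lower level of 1371033_at, the first difference was -2.14 (limma adjusted p = 0.138) and the second passed (1.48, limma adjusted p = 0.0266). Without single hearts the first ran from -2.14 to -0.997. No direction for RT1-Bb as a gene follows from these values. Whether a probe set read the amount of transcript or how well its probes match a heart's own form of the gene was not tested. The labels give no RT1 type for a rat, and probe sequences were not used here.

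**Figure D2:**
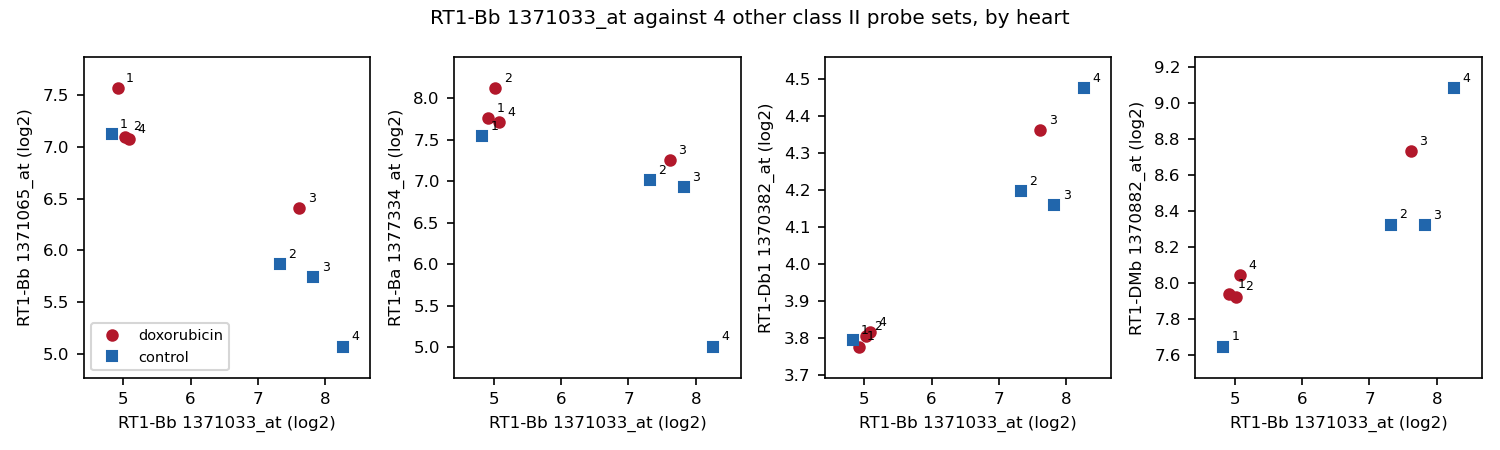
Level of RT1-Bb 1371033_at (x axis, log2) against 4 other class II probe sets (y axes, log2), 1 point per heart, doxorubicin as red circles and control as blue squares, numbered by replicate. The 4 hearts above 7 on the x axis are lowest on RT1-Bb 1371065_at and RT1-Ba 1377334_at and highest on RT1-Db1 1370382_at and RT1-DMb.

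RT1-Ba, the alpha partner of RT1-Bb, had 4 probe sets, of which 1377334_at varied most from heart to heart. Probe set 1377334_at read 7.76, 8.12, 7.26 and 7.71 log2 in doxorubicin hearts, against 7.55, 7.02, 6.93 and 5.0 log2 in control hearts. Control 4 lay 1.93 log2 below the next heart, and the hearts high on RT1-Bb 1371033_at were again the 4 lowest. The difference between groups was 1.09 (SE 0.46, limma adjusted p = 0.339), and 0.55 without control 4.

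The brightest RT1-Ba probe set, 1370822_at, read 7.96, 7.87, 8.43 and 7.94 log2 in doxorubicin hearts, against 8.06, 7.75, 8.18 and 7.95 log2 in control hearts. The groups overlapped, with doxorubicin 3 highest and control 2 lowest, and the difference was 0.07 (SE 0.13, limma adjusted p = 0.903). Its sign turned without control 2 (-0.01), without doxorubicin 3 (-0.06) and with array weights (-0.0018). The remaining probe sets, 1381593_x_at and 1392334_at, which carry the same accession in the annotation, kept nearly the same distance in every heart, within 0.12 log2. They stood at -0.18 (SE 0.11) and -0.20 (SE 0.10) between groups without passing. The distance between 1377334_at and 1392334_at, by contrast, moved by 3.45 log2 over the hearts. That between 1370822_at and 1381593_x_at moved by 0.70 log2, so these did not order the hearts alike either.

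RT1-Da, the alpha chain of the RT1-D molecule, gave the smallest p of the 12. It read 10.64, 10.47, 10.61 and 10.51 log2 in doxorubicin hearts, against 10.37, 10.17, 10.41 and 10.20 log2 in control hearts. Each doxorubicin heart lay above each control heart, as was so for 4.52% of all probe sets (4.02% did so in reverse, 8.55% together). The difference was 0.27 (95% interval 0.11 to 0.43, unadjusted p = 0.00445), which missed the threshold (limma adjusted p = 0.11, and 0.0804 to 0.293 over 17 other settings). Its spread within groups was at the 38.8th percentile of all probe sets, so RT1-Da showed no split of the kind seen for RT1-Bb.

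Its beta partner RT1-Db1 had 2 probe sets. The brighter, 1370383_s_at, read 7.29, 7.02, 7.47 and 7.08 log2 in doxorubicin hearts, against 7.36, 7.18, 7.34 and 7.29 log2 in control hearts, with a difference of -0.08 (SE 0.10, limma adjusted p = 0.815). The groups overlapped in full, the control hearts lying inside the doxorubicin range. The second, 1370382_at, is dim, with a mean of 4.05 log2 (the dimmest 25% of probe sets lie under 4.16), and read 3.78, 3.81, 4.36 and 3.82 log2 in doxorubicin hearts against 3.79, 4.20, 4.16 and 4.48 log2 in control hearts. The hearts high on RT1-Bb 1371033_at were the 4 highest here too, although the whole range was 0.70 log2. In the array's naming the ending _s marks probes shared by several transcripts and _x probes that may cross-hybridize, so RT1-Db1 1370383_s_at and RT1-Ba 1381593_x_at may read other transcripts too.

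The DM chains, partners in 1 heterodimer, behaved unlike each other. RT1-DMb read 7.94, 7.92, 8.73 and 8.04 log2 in doxorubicin hearts, against 7.64, 8.32, 8.32 and 9.08 log2 in control hearts. Control 4 and doxorubicin 3 were highest and control 1 lowest, 2.71-fold apart from top to bottom. Its mean was 8.16 ± 0.39 log2 in doxorubicin and 8.34 ± 0.59 log2 in control hearts (SD, n = 4 each), a difference of -0.18 (SE 0.28, limma adjusted p = 0.864) whose sign turned without control 4 (0.06). RT1-DMb has a single probe set, so its heart-to-heart differences cannot be checked against another.

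RT1-DMa read 5.54, 5.50, 5.56 and 5.63 log2 in doxorubicin hearts, against 5.48, 5.23, 5.42 and 5.27 log2 in control hearts. The groups did not overlap, and the difference was 0.21 (95% interval 0.05 to 0.37, limma adjusted p = 0.205), so it did not pass. Of the 12 class II probe sets, these 2, RT1-Da and RT1-DMa, were higher in each doxorubicin heart than in each control heart. None was lower in each. Of all probe sets 4.52% were higher and 4.02% lower in this way. RT1-DMa varied little within groups (33.1st percentile).

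Cd74, the invariant chain, read 11.87, 11.72, 11.83 and 11.61 log2 in doxorubicin hearts, against 11.80, 11.51, 11.63 and 11.61 log2 in control hearts. It had the narrowest range of the 12 class II probe sets over the 8 hearts, 0.36 log2, close to the median of 0.36 log2 for all probe sets. Its mean was 11.76 ± 0.12 log2 in doxorubicin and 11.64 ± 0.12 log2 in control hearts (SD, n = 4 each), and the difference of 0.12 (95% interval -0.06 to 0.30, limma adjusted p = 0.599) was within the spread between hearts.

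**Figure D3:**
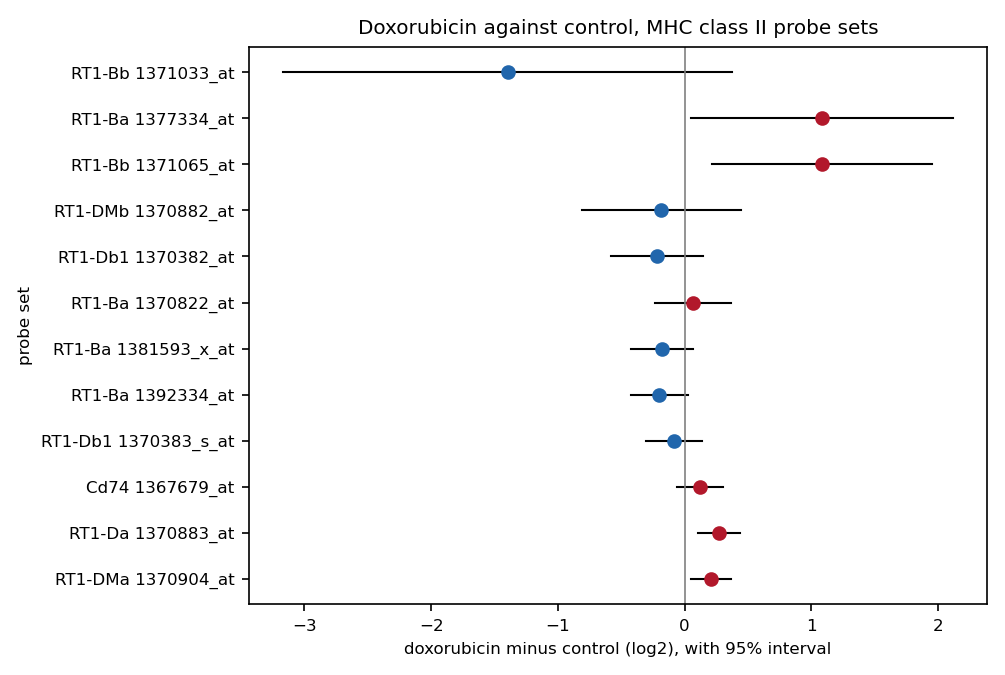
Doxorubicin minus control (log2) for the 12 class II probe sets, with the 95% interval of the limma fit as a line; red points are positive and blue points negative. The 2 probe sets of RT1-Bb lie on opposite sides of 0 (-1.40 and 1.09), and RT1-Da (0.27) and RT1-DMa (0.21) have narrow intervals above 0.

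Some class II genes ran together over the hearts, although no pair passed after adjustment. Over the brightest probe set of each gene, RT1-Da and RT1-DMa ran together over the 8 hearts (r = 0.91, exact permutation p = 0.00325; rho = 0.88, p = 0.00724). RT1-Da and Cd74 did so less closely (r = 0.77, exact permutation p = 0.0292; rho = 0.79, p = 0.0279), as did RT1-Ba and RT1-Db1 (r = 0.78, exact permutation p = 0.0217; rho = 0.88, p = 0.00724). RT1-Bb 1371065_at ran with RT1-DMa (r = 0.78, exact permutation p = 0.0237; rho = 0.55, p = 0.171) and against RT1-DMb (r = -0.83, exact permutation p = 0.01; rho = -0.83, p = 0.0154). These 5 pairs had an unadjusted p under 0.05 for r. The hearts were not centred on their groups for these values, so r, rho and p take in any difference between the groups. None of the 21 pairs passed after Benjamini-Hochberg adjustment over the 21, the lowest adjusted values being 0.0682 for r and 0.076 for rho.

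Without the 2 hearts farthest from the median of the first gene, r was 0.63 for RT1-Da with RT1-DMa, 0.51 for RT1-Da with Cd74, 0.55 for RT1-Ba with RT1-Db1, 0.70 for RT1-Bb with RT1-DMa and -0.69 for RT1-Bb with RT1-DMb. With each heart centred on its group mean, r was 0.74, 0.74, 0.88, 0.54 and -0.95 for the same pairs, and 15 of the 21 pairs were positive with a median of 0.44. Control 2 was the lowest of the 8 hearts on Cd74, RT1-Da, RT1-DMa and RT1-Ba 1370822_at. The split of RT1-Bb had opposite signs in 2 probe sets of 1 gene, and RT1-Ba 1377334_at, RT1-Db1 1370382_at and RT1-DMb placed the same 4 hearts at one end.

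**Figure D4:**
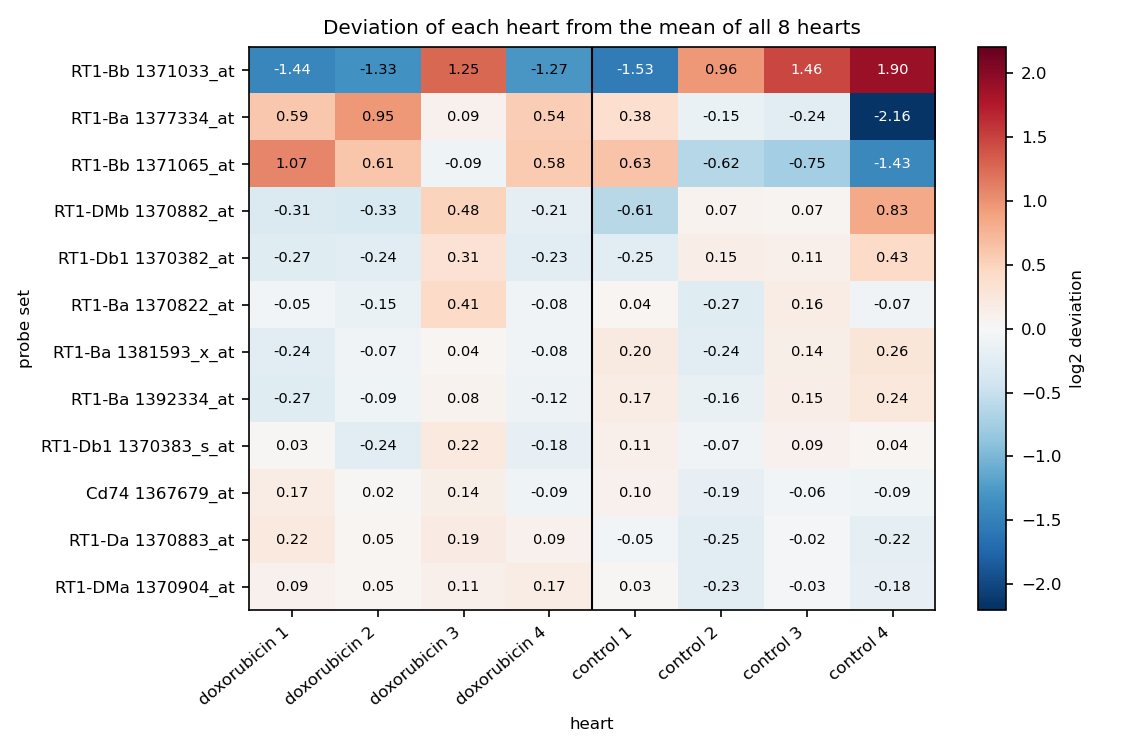
Deviation (log2, colour and number) of each heart (columns) from the mean of all 8 hearts for the 12 class II probe sets (rows), doxorubicin hearts left of the line and control hearts right. Rows run from the largest to the smallest spread within groups, the top 3 hold the lowest and highest deviations (-2.16 and 1.90), and the row of RT1-Bb 1371065_at is nearly the reverse of the row of RT1-Bb 1371033_at.

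By a rule for likeness, the 8 genes closest to the mean class II profile (r over 8 hearts, each centred on its group, among 12194 genes above the dimmest 25%) were Tmem14c (0.99), the ATP synthase subunit gene Atp5f1b (0.99), the cap-binding gene Eif4e (0.98), the mitochondrial carnitine carrier gene Slc25a20 (0.98), Dmac2 (0.98), the mitochondrial peroxiredoxin gene Prdx3 (0.98), Rnf114 (0.97) and Snx12 (0.97). The class II genes described here were left out before this ranking, so none of them could appear. Being the highest of 12194 values over 8 hearts, these r describe a ranking and were not tested. None of the 8 genes is a marker on the cell type lists used here. Control 2 was also the lowest heart on Tmem14c, Atp5f1b, Dmac2, Prdx3 and Snx12. The mean profile itself spanned little, from -0.10 to 0.10 log2 in doxorubicin hearts and from -0.12 to 0.14 log2 in control hearts. It averages out probe sets that run against each other, such as RT1-Bb 1371065_at and RT1-DMb.

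RT1-DMb was compared by another rule, which took r of either sign and kept only genes with a range above 1 log2. The 8 genes above had ranges of 0.15 to 0.61 log2 and could not enter, so the lists cannot be set against each other. Among the 666 genes kept, a set chosen after values were seen, the closest to RT1-DMb was RT1-Bb 1371065_at (r = -0.95 over 8 hearts centred on their groups). Next came the prefoldin subunit gene Pfdn6 (-0.95), Dedd (-0.92), the transcription factor gene Cebpb (-0.92) and Neu2 (0.91). The chemokine gene Ccl4 (-0.89), Ccrl2 (-0.88) and Timp1, an inhibitor of matrix metalloproteases (-0.88), followed. These r too were picked as the largest among those compared and were not tested. Pfdn6 is a gene of the MHC region of chromosome 20. It read 10.45, 10.28, 9.998 and 10.31 log2 in doxorubicin hearts, against 10.68, 9.97, 9.90 and 9.39 log2 in control hearts, and the hearts high on RT1-Bb 1371033_at were its 4 lowest.

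Genes that lie between the class II genes varied from heart to heart as well. In the RefSeq order of measured genes on chromosome 20 the members run RT1-Da, RT1-Db1, RT1-Ba, RT1-Bb, then Tap2, Psmb8, Tap1 and Psmb9, then RT1-DMb and RT1-DMa. The 4 genes in the middle serve class I: Tap1 and Tap2 form the peptide transporter and Psmb8 and Psmb9 are immunoproteasome subunits. Of their 5 probe sets 4 had a spread within groups in the top 10% of all probe sets. That count was 1 of 32 for the 25 measured genes before RT1-Da, 5 of 32 for the 25 after RT1-DMa, and 65 of 488 (13.3%) for the rest of chromosome 20. This stretch was chosen after the values of its genes were seen.

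Psmb8 read 7.47, 7.44, 7.001 and 7.34 log2 in doxorubicin hearts, against 7.95, 6.62, 6.92 and 6.53 log2 in control hearts. The hearts high on RT1-Bb 1371033_at were its 4 lowest. Psmb9 read 7.93, 7.58, 7.45 and 7.48 log2 in doxorubicin hearts, against 8.30, 7.14, 7.40 and 7.28 log2 in control hearts. Its 4 lowest were the same hearts, although doxorubicin 4 lay just above doxorubicin 3, and control 1 was highest on both proteasome genes. The transporter genes did not order the hearts in that way. Tap2 was lowest in control 3, control 2, doxorubicin 2 and doxorubicin 1, and Tap1 1388149_at in control 2 and doxorubicin 1, 2 and 4. Vps52, a subunit of a vesicle-tethering complex that lies beyond RT1-DMa, read 6.50, 6.34, 7.34 and 6.55 log2 in doxorubicin hearts, against 6.45, 7.08, 6.91 and 7.13 log2 in control hearts, and its 4 highest were the same hearts. None of the probe sets of Tap1, Tap2, Psmb8, Psmb9, Vps52 and Pfdn6 was called between the groups. Of the 69 probe sets of other genes in this stretch and its flanks 2 were called, against 2.21% of all probe sets. They were Hspa1a (-1.59, limma adjusted p = 0.0016) and Brd2 1371719_at (-1.54, limma adjusted p = 0.00213), both lower in doxorubicin hearts. The second Brd2 probe set stood at -0.04.

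**Figure D5:**
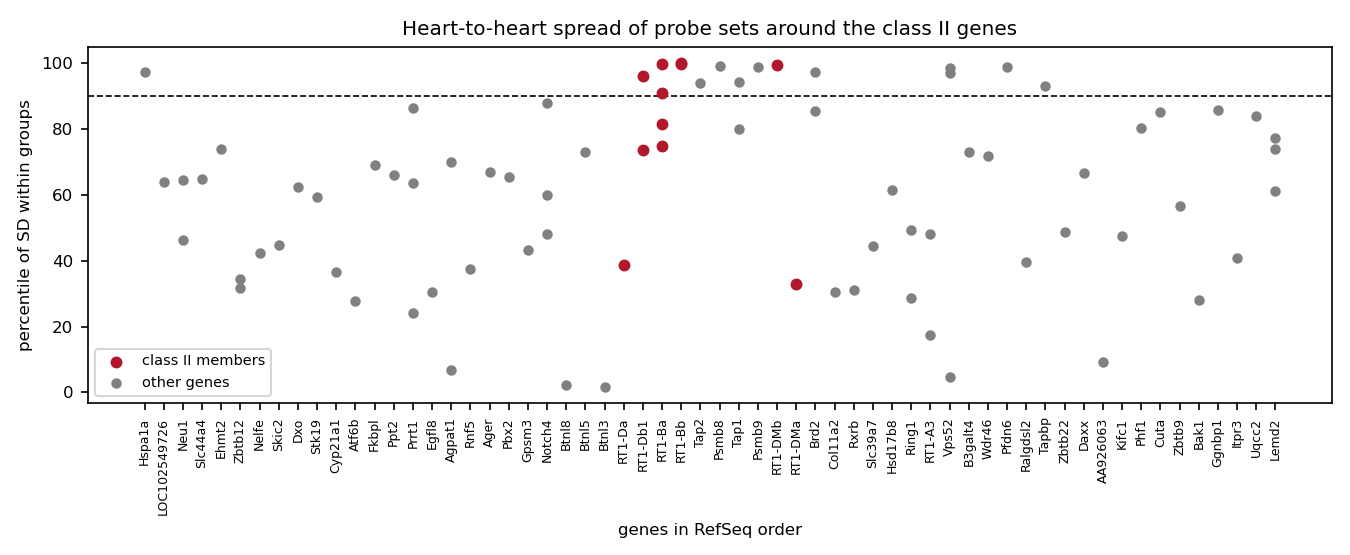
Percentile of the spread (SD) within groups among all 31042 probe sets (y axis) for the probe sets of genes around the class II genes, in RefSeq order along chromosome 20 (x axis); red points are class II members, grey points other genes, and the dashed line marks the top 10%. Red and grey points from RT1-Db1 to RT1-DMb lie mostly above the line, while RT1-Da (38.8) and RT1-DMa (33.1) lie well below it.

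The other genes of the class II pathway were not called. Of 8 transcription factor genes that act on class II promoters none passed (at an unadjusted p under 0.05, 1 was lower, against 13.6% of probe sets in either direction), with a median difference of -0.05. The coactivator Ciita stood at 4.63 ± 0.06 log2 in doxorubicin and 4.71 ± 0.12 log2 in control hearts (SD, n = 4 each), a difference of -0.08 (SE 0.07), while its dim second probe set stood at 0.05. Creb1 stood at -0.44 (SE 0.16), and at -0.04 with the hybridization control level in the model (limma adjusted p = 0.995). Its other probe sets stood at -0.03, 0.05 and -0.02. Nfya stood at -0.15 (SE 0.12), and its second probe set, 1390122_at, at -0.29 (SE 0.07, limma adjusted p = 0.0599). Of 10 genes for peptide loading and turnover none passed either (6 higher and 1 lower unadjusted, beside 7.73% higher and 5.84% lower of all probe sets, median 0.17).

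Ctss, the cathepsin that trims Cd74, read 8.29, 8.41, 8.18 and 8.53 log2 in doxorubicin hearts, against 8.06, 8.12, 8.21 and 7.91 log2 in control hearts. Control 3 overlapped the doxorubicin hearts, and the difference was 0.28 (SE 0.09, limma adjusted p = 0.184). Lysosomal relatives stood nearby without passing, Ctsh at 0.18 (SE 0.05) and Ctsl at 0.19 (SE 0.07). Marchf1, a ubiquitin ligase that removes class II from the surface, stood at -0.19 (SE 0.07) with a mean under 4.16 log2.

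In the interferon gamma list none of 13 measured genes passed (1 higher and 6 lower unadjusted, beside 7.73% and 5.84% of all probe sets, median -0.29). Irf1, a transcription factor that interferon gamma induces, stood at 10.56 ± 0.20 log2 in doxorubicin and 11.01 ± 0.12 log2 in control hearts (SD, n = 4 each), a difference of -0.45 (SE 0.10, limma adjusted p = 0.0624), and it passed without control 2 or doxorubicin 4 and with an intensity trend in the variance (limma adjusted p = 0.0333). The receptor gene Ifngr1 stood at -0.29 (SE 0.07) and Icam1 at -0.36 (SE 0.12), and Ifng itself was dim. Cxcl9, a chemokine that interferon gamma induces, went the other way. It read 7.34, 7.43, 7.005 and 7.36 log2 in doxorubicin hearts, against 7.28, 6.15, 6.19 and 6.36 log2 in control hearts. Control 1 lay with the doxorubicin hearts, as on RT1-Bb. Doxorubicin 3, unlike on RT1-Bb, lay with them too and not with control 2, 3 and 4. The difference of 0.79 (SE 0.23, limma adjusted p = 0.135) became 1.05 without control 1 (limma adjusted p = 0.00141) and 0.90 with array weights (limma adjusted p = 0.0323).

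Of 23 measured class I presentation genes 1 rose and none fell, against 2.97% of all genes called. Unadjusted, 4 were higher and 0 lower, beside 7.73% and 5.84% of all probe sets, with a median of 0.06. The gene called was RT1-CE5, a class I heavy chain. Its brightest probe set, 1388255_x_at, was at 5.64 ± 0.15 log2 in doxorubicin and 4.92 ± 0.31 log2 in control hearts (SD, n = 4 each). The difference was 0.72 (SE 0.15, limma adjusted p = 0.0342). By its _x ending this probe set may read other transcripts too. Whether it read the amount of transcript or how well its probes match a heart's own form of the gene was not tested. The other probe sets of RT1-CE5 did not agree among themselves. One, 1371209_at, also rose, by 1.17 (limma adjusted p = 0.00711), and the others stood at 0.33, 0.09 and -0.08. The call was lost without control 3 or any one of doxorubicin 1, 2 and 3, with adjusted p up to 0.112, and 3 genes of the list were called without control 1. None of 6 genes for costimulation and CD4 passed, with Cd40 at 0.40 (SE 0.17) and a median of 0.04. Unadjusted, 1 was higher and 0 lower, beside the same 7.73% and 5.84%.

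Markers of the cells that carry class II were read in the same hearts; in bulk tissue, fewer cells of a type and less RNA per cell cannot be told apart. None of 20 macrophage markers passed on its brightest probe set (3 higher and 2 lower unadjusted, beside 7.73% and 5.84% of all probe sets, median 0.09). The lower ones were Cd14 at -0.53 (SE 0.16) and Adgre1 at -0.24 (SE 0.09). Ptprc was higher at 0.33 (SE 0.09), with its other probe set at 0.06. Laptm5 stood at 0.26 on its brightest probe set, while its other one, 1368006_at, was called at 0.48 (SE 0.10, limma adjusted p = 0.0495). Without control 2, 1 marker of the list was called. The mean level of the list ran from 6.37 to 6.71 log2 in doxorubicin and from 6.21 to 6.54 log2 in control hearts. Of 8 dendritic cell markers 1 rose, against 2.97% of all genes called, the integrin gene Itgax (difference 0.54, SE 0.09, limma adjusted p = 0.0122), with a list median of 0.12 and mean levels of 5.70 to 5.82 log2 in doxorubicin and 5.51 to 5.59 log2 in control hearts. Of 11 T and NK cell markers 2 rose, beside the same 2.97%, the granzyme gene Gzmb (0.78, SE 0.11) and Klrb1a (0.49, SE 0.09), with a median of 0.11 and mean levels of 4.59 to 4.77 log2 in doxorubicin and 4.45 to 4.56 log2 in control hearts.

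Of the T and NK cell list Cd3e, Cd3g and Il7r lay in the dimmest 25% of probe sets, as did the dendritic cell marker Clec9a. The T cell kinase gene Lck was not that dim and stood at 0.28 (SE 0.07, limma adjusted p = 0.0903) without passing. Of the 11 differences in that list 10 were positive. So were 9 of 10 for loading and turnover, 7 of 8 dendritic, 15 of 20 macrophage and 17 of 23 class I genes. By contrast, 1 of 8 class II transcription, 3 of 13 interferon gamma and 1 of 6 B cell genes were positive. The share over all genes is not given here. Of 6 B cell markers none passed (none at an unadjusted p under 0.05, against 13.6% of all probe sets, median -0.05). Their mean levels were 4.43 to 4.52 log2 in doxorubicin and 4.43 to 4.64 log2 in control hearts. The mean levels of the dendritic and of the T and NK cell lists were higher in each doxorubicin heart than in each control heart, and that of the class II transcription list was lower in each (6.17 to 6.32 log2 in doxorubicin and 6.32 to 6.40 log2 in control hearts, the nearest hearts 6.319 and 6.323). Of single probe sets, 8.55% did not overlap between the groups. Klrb1a lost its call without control 4 or any one of doxorubicin 1, 2 and 3 (limma adjusted p up to 0.063). The part of these cells in the class II values was not tested. Among the remaining lists, 1 of 9 endothelial markers rose (Tie1, 0.34) and 1 fell (Erg, -0.60), against 2.97% of all genes called. Leaving out single hearts ended these calls (limma adjusted p up to 0.0576 and 0.0965), as did the intensity trend for Tie1 (0.0556) and an offset of 16 before log2 for Erg (0.0506). By contrast, none of 5 neutrophil, 8 fibroblast and 7 cardiomyocyte markers passed. At an unadjusted p under 0.05 these had 1, 0 and 0, the 1 being lower, against 13.6% of all probe sets.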

How the data were processed

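The authors deposited RMA intensity values per probe set on a linear scale, per the submitters' processing notes and the values themselves. The sources used here do not give the RMA version. The log2 of each value was taken with no offset. Precision is limited by the number of arrays, 4 per group. Of 31099 probe sets, 57 controls were left out. Of the rest, 20826 had 1 gene symbol, 436 several and 9780 none. Symbols were updated through gene IDs in the RefSeq table of GRCr8, where 20758 of the 20826 were found.

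Group differences came from limma 3.58.1 (lmFit, eBayes) in R 4.3.3, two-sided, over all 8 arrays, and measure the spread between these hearts. The script was tested on simulated data. Correlations of hearts used exact permutation over 40320 pairings. The brightest probe set by mean stands for a gene.

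Named were all member probe sets, up to 4 genes per list by call and p, and the 8 genes most like the class II profile. Other genes were named after their values were seen. The members and lists were chosen with earlier results of these data known. None of the 6 further class II symbols listed (such as RT1-DOa) had a probe set with 1 symbol, and they are not analysed here. Same-numbered hearts did not pair (correlation of their deviations -0.18 to 0.06). Figures used Python 3.11.15 and matplotlib 3.10.9.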

Additional observations from a re-analysis of the deposited data

Results flagged for a closer look

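Within the doxorubicin group, heart 3 lay far from the others on 4 of the 12 class II probe sets. It read 7.61 log2 on RT1-Bb 1371033_at, 4.36 log2 on RT1-Db1 1370382_at, 8.73 log2 on RT1-DMb 1370882_at and 8.43 log2 on RT1-Ba 1370822_at. Its gap to the nearest heart divided by the group's range was 0.938, 0.933, 0.853 and 0.836 on these, above the 95% critical value of Dixon's test for 4 samples. Of 24 groups looked at 4 were singled out in this way. Chance picks about 1 in 20 of independent groups. These groups were 12 probe sets over the same 8 hearts, several of which moved together, so the count cannot be set against that share. On RT1-Bb, RT1-Db1 and RT1-DMb the heart lay among control hearts 2, 3 and 4, and no control heart was singled out.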

How the results depend on the processing

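The count of class II probe sets called stayed at 0 in each setting tried except without control 1, where it was 1, so leaving out single hearts gave 0 to 1. The count over all probe sets was 687, 92 with the level of the hybridization controls in the model (the covariate) and 397 to 854 without single hearts. The class II median difference was 0.12, 0.23 with that covariate and 0.08 to 0.17 without single hearts. The median pair correlation was 0.44, 0.14 with all probe sets of a gene averaged and 0.30 to 0.53 without single hearts. The range of the RT1-Bb probe set difference was 4.73 to 5.84 without single hearts. Signs turned for RT1-Ba 1370822_at (-0.0018 with array weights, -0.0601 to 0.13 without single hearts), RT1-DMb (-0.42 to 0.0631 without single hearts), RT1-Db1 1370383_s_at (8.21e-04 with the covariate) and, with the covariate, Nfya (0.0671), Cd4 (-0.0050) and Ctla4 (0.0017), none of them called. The cause was not tested. Averaging probe sets gives no count of probe sets, and leaving out dim probe sets gives no value for RT1-Db1 1370382_at. An intensity trend ended the call of Tie1 and made one of Irf1, an offset of 16 ended that of Erg, and array weights made one of Cxcl9. With the hybridization covariate RT1-CE5, Itgax, Gzmb, Klrb1a, Tie1 and Erg lost their calls. With the replicate number as a block (replicate block) 511 probe sets and 0 class II probe sets were called, and RT1-CE5 (adjusted p = 0.0821), Tie1 (0.0732) and Erg (0.0708) lost their calls; the numbers do not pair the hearts.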

Other observations

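Probe sets without a single gene symbol were compared with RT1-DMb alone, and not with the other class II genes, some of which ran against it. Among 257 such probe sets above the dimmest 25% and with a range above 1 log2, 1393108_at was closest to RT1-DMb (r = 0.99 over 8 hearts centred on their groups, a description). It read 4.0, 3.93, 5.88 and 4.39 log2 in doxorubicin hearts, against 4.14, 5.64, 6.16 and 7.55 log2 in control hearts, so doxorubicin 3 and control 2, 3 and 4 were its 4 highest. The next, 1392476_at (r = 0.93), did not place those hearts together: it read 4.09, 4.19, 4.37 and 4.32 log2 in doxorubicin hearts, against 5.17, 5.55, 5.48 and 5.88 log2 in control hearts, and it was called lower with doxorubicin (-1.27, SE 0.13, limma adjusted p = 0.00101). Probe set 1388071_x_at (r = 0.92) had 8.72, 7.88, 10.51 and 9.01 log2 in doxorubicin hearts and 8.53, 10.20, 10.59 and 11.14 log2 in control hearts, and its 4 highest were the same hearts. Between the groups 1393108_at and 1388071_x_at were not called (limma adjusted p = 0.435 and 0.515).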
